A study of Homo sapiens with 101 samples.

Results

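The genes described here are 41 members of the 2 excision repair pathways, 19 of base excision repair and 22 of nucleotide excision repair, among 19774 genes measured in the series. They were chosen by name, with 1 probe set per gene, the one with the highest mean over all arrays. Of the 41 members, 40 had a group mean of log2 4 or more in at least 1 of the 17 groups and were tested beside 11496 genes in all, namely 18 of base excision repair and 22 of nucleotide excision repair. NEIL1, a glycosylase for oxidised bases, was not tested, since its highest group mean was 3.43 in CUR_DMSO controls and its lowest 2.71 in QUE. ERCC2, a helicase of the repair factor TFIIH, passed narrowly: 7 of the 17 groups had a mean of 4 or more, and the group means ran between 3.59 in GAD and 4.57 in BRO_DMSO controls. The other 39 tested members were at or above 4 in all 17 groups.

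The cells were HT1080, an established human fibrosarcoma line, given 1 of 11 compounds 24 h after seeding, in 0.1% DMSO vehicle, and read on 101 Affymetrix expression arrays. Each compound was used at 1 dose, set so that total p53 rose 1.5-fold, so all 11 are matched by that rise and not by dose. The labels give the compounds as abbreviations. In general use MMC stands for mitomycin C, NCS for neocarzinostatin, H2O2 for hydrogen peroxide, ENU for N-ethyl-N-nitrosourea, tBHQ for tert-butylhydroquinone, MMS for methyl methanesulfonate, CUR for curcumin, ETP for etoposide and QUE for quercetin. BRO and GAD are kept as the labels write them. MMC at 0.1 µM (5 samples), NCS at 10 ng/ml, H2O2 at 100 µM (5 samples), ENU at 2 mM, GAD at 2 mM and tBHQ at 200 µM were set against the same 6 DMSO_pooled controls, a tie inferred from the labels. BRO at 600 µM was set against BRO_DMSO, MMS at 200 µM against MMS_CTL, CUR at 10 µM against CUR_DMSO, ETP at 0.3 µM against ETP_DMSO and QUE at 30 µM against QUE_DMSO. All groups other than MMC and H2O2 had 6 samples, the 7 ETP_DMSO arrays included, of which those numbered 2 and 2-2 were averaged. The first 6 comparisons share their controls, so their results for a gene are not independent of each other. The ETP_DMSO and QUE_DMSO samples of the same number deviated together (correlations of 0.33 to 0.86, best with their own number in 6 of 6), so the ETP and QUE comparisons may not be independent either. The labels do not say whether the samples of a group were separate cultures, so the p-values measure only the spread between these samples. HT1080 cells are 1 tumour line, the arrays read a bulk of cells, and fewer cells of a kind cannot be told apart from less RNA per cell.

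Base excision repair replaces small damaged or wrong bases. A DNA glycosylase cuts out the base, an endonuclease opens the strand at the bare sugar, and a polymerase and a ligase refill and seal the gap, held together by a scaffold and by enzymes that sense or clean the nick. Nucleotide excision repair removes bulky lesions in a short oligonucleotide: the lesion is found by XPC and the DDB complex, or by a stalled RNA polymerase with the CSA and CSB proteins, opened by TFIIH, checked by XPA and cut on both sides by ERCC1-ERCC4 and ERCC5. DDB2 and XPC are known targets of p53 in human cells, and UNG is known to be expressed most in S phase.

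Calls were held by a few genes of each pathway. XPC was called higher in 7 compounds, DDB2 higher in 5 and UNG lower in 5. Of all 11496 genes, 0.331% were called higher in at least 7 compounds, 1.05% higher in at least 5 and 1.38% lower in at least 5. A call needed a Benjamini-Hochberg adjusted p under 0.05 over all 11496 genes in limma and a change of at least 1.5-fold, or 0.585 on the log2 scale, on which all levels and changes below are given. Over the 11 comparisons, 7 of the 18 base excision members were called at least once, in 17 of 198 gene and compound pairs (8 higher, 9 lower). Of the 22 nucleotide excision members, 8 were called at least once, in 20 of 242 pairs (15 higher, 5 lower). At least 1 higher call was held by 4 base and 5 nucleotide excision members, and at least 1 lower call by 4 and 3. Of all 11496 genes, 23.6% were called higher and 23.4% lower in at least 1 compound. These totals alone do not set the pathways apart from other genes. The share of all genes called ran from 0.165% in MMC to 26.2% in GAD and is given by compound below. The remaining 11 base excision and 14 nucleotide excision members were called in no compound.

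**Figure D1:**
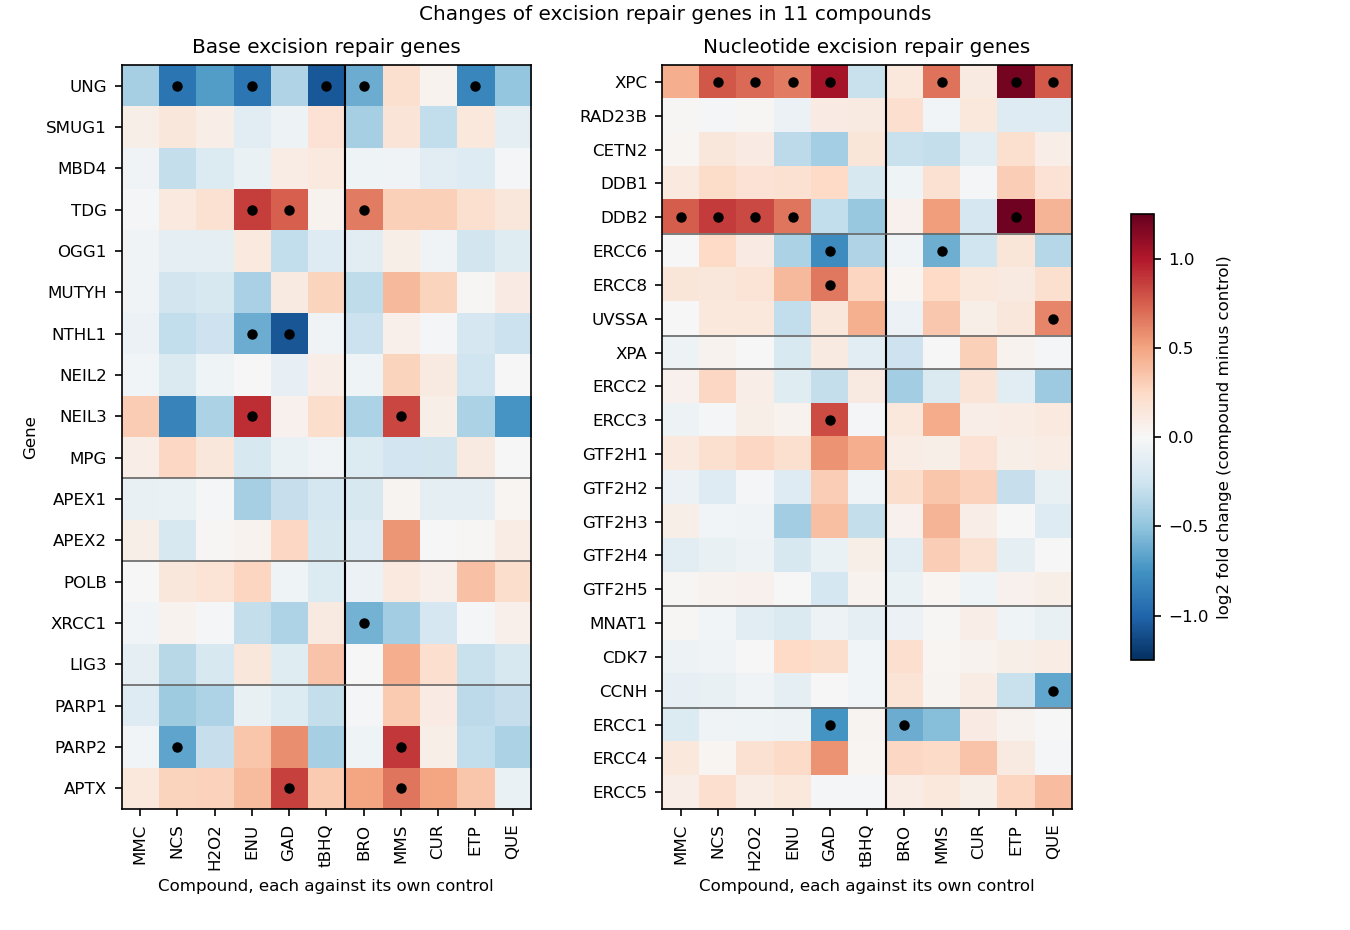
Colour map of the log2 fold change (compound minus its own control) of the 40 tested genes, base excision repair on the left and nucleotide excision repair on the right, with 1 column per compound and a black dot where the change was called. The vertical line parts the 6 compounds that share DMSO_pooled from the others. XPC and DDB2 carry most of the dots on the right, and UNG carries 5 on the left.

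The 250 bases before the annotated start of the 3 genes with the most calls are shown, since their changes recur over the compounds. They are RefSeq sequences on GRCh38.p14, written 5′ to 3′ on each gene's own strand: DDB2 at chr11:47214204-47214453 (plus strand), XPC at chr3:14178602-14178851 (minus strand) and UNG at chr12:109097347-109097596 (plus strand). Capitals mark CCAAT boxes in DDB2, the E2F letters TTTCCCGC and the GC box GGGCGG in XPC, and the GC box read on the other strand, CCGCCC, in UNG.
DDB2: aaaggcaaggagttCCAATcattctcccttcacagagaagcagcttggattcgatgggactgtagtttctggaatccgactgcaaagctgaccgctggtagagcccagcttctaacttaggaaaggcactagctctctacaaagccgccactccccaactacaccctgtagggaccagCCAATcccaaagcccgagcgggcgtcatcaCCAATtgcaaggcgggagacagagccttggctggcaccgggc
XPC: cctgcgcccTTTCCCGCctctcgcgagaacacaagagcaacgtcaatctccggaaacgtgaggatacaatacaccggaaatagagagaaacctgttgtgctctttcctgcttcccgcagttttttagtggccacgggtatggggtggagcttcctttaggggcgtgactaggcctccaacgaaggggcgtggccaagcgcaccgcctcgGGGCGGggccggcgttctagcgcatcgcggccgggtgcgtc
UNG: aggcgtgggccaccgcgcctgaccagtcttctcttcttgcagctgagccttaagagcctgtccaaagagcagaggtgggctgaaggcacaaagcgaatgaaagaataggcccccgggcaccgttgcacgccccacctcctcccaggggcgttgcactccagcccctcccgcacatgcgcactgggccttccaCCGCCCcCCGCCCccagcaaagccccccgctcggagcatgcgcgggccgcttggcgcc
The DDB2 window held CCAAT at 3 places, beginning 236, 72 and 42 bases before the start. The XPC window held the E2F letters 241 bases and the GC box 41 bases before the start. The UNG window held the GC box 58 and 51 bases before the start. Windows of 300 bases, the 50 bases after the start included, were found for 38 of the 41 members and searched on both strands. The E2F letters TTTCCCGC, TTTGGCGC, TTTCGCGC or TTTGCCGC were in 0 of 16 base excision and 1 of 22 nucleotide excision windows, against 3.325% of 27305 promoters. CCAAT was in 10 of 16 and 7 of 22 windows, against 35.7% of all promoters, and GGGCGG in 13 of 16 and 16 of 22, against 44.6%. The p53 decamer, a single copy of its response element by name, was matched in 1 of 16 base excision windows, that of UNG, where it lay in the 50 bases after the start, and in 0 of 22 nucleotide excision windows, against 6.54% of all promoters. A match is a string of letters and says nothing of binding, and windows of this length leave out most of each gene.

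The calls are given by compound with the share of all 11496 genes called in the same comparison. In MMC, 0 of 18 base excision and 1 of 22 nucleotide excision members were called, against 0.165% of all genes, all of them higher. In NCS, 2 base excision members were lower and 2 nucleotide excision members higher, against 2.44% of all genes (1.48% higher, 0.966% lower). In H2O2, 0 base excision members were called and 2 nucleotide excision members were higher, against 0.931% of all genes (0.765% higher, 0.165% lower). In these 3 compounds every nucleotide excision call was DDB2 or XPC. In ENU, 2 base excision members were higher and 2 lower, and 2 nucleotide excision members were higher, against 10.9% of all genes (4.76% higher, 6.11% lower). GAD called the most members, with 2 base excision genes higher and 1 lower and 3 nucleotide excision genes higher and 2 lower, against 26.2% of all genes (11.1% higher, 15% lower). In tBHQ, 1 base excision member was lower and 0 nucleotide excision members were called, against 9.83% of all genes (5.39% higher, 4.44% lower). BRO called 1 base excision member higher and 2 lower and 1 nucleotide excision member lower, against 7.39% of all genes (2.46% higher, 4.93% lower). MMS called 3 base excision members higher and 0 lower, and 1 nucleotide excision member higher and 1 lower, against 11% of all genes (4.46% higher, 6.56% lower). In CUR 0 members were called by limma, against 2.2% of all genes (1.27% higher, 0.931% lower). In that comparison 7 of the 40 had an unadjusted p under 0.05, but the share of all genes under that threshold was not counted. ETP called 1 base excision member lower and 2 nucleotide excision members higher, against 2.68% of all genes (2.06% higher, 0.618% lower). QUE called 0 base excision members, and 2 nucleotide excision members higher and 1 lower, against 13% of all genes (6.38% higher, 6.65% lower). As shares, the members called in GAD (16.7% of base and 22.7% of nucleotide excision genes) were below the share of all genes. Those in QUE (0% and 13.6%) and tBHQ (5.56% and 0%) were near or below it. Base excision genes were above it in ENU (22.2%), BRO and MMS (16.7% each), NCS (11.1%) and ETP (5.56%). Nucleotide excision genes were above it in NCS, H2O2 and ETP (9.09% each) and in MMC (4.55%), through DDB2 and XPC. Nucleotide excision genes were below it in ENU and MMS (9.09% each) and in BRO (4.55%). Base excision genes were at 0% in MMC and H2O2, and both lists were at 0% in CUR. Each of the shares said to be above that of all genes rests on 1 to 4 genes.

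With no fold minimum more members passed the threshold in most comparisons, as did more of all genes. GAD then had 9 of 18 base and 14 of 22 nucleotide excision members past the threshold, against 61.7% of all genes, and MMS had 9 and 9, against 35%. QUE had 1 and 6, against 33.4%, ENU 9 and 7, against 33.2%, tBHQ 8 and 6, against 31.9%, and BRO 6 and 5, against 30.2%. QUE thus had fewer base excision members past the threshold than its share of all genes. NCS had 4 and 4, against 7.7%, ETP 2 and 2, against 5.08%, H2O2 0 and 2, against 1.89%, and MMC 0 and 1, against 0.27%. CUR had 0 and 0, against 5.11%. Groups without overlap, the count in base and then in nucleotide excision members, numbered 5 and 8 in GAD, against 39.2% of all genes, 5 and 6 in MMS, against 19.5%, and 6 and 4 in ENU, against 16.4%. They numbered 3 and 1 in tBHQ (16.3%), 5 and 0 in BRO (13.8%), 0 and 2 in QUE (9.61%) and 0 and 3 in NCS (4.46%). They numbered 1 and 3 in ETP (4.02%), 0 and 0 in CUR (3.85%), 0 and 3 in H2O2 (3.48%) and 0 and 2 in MMC (1.09%).

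The median change of a list was farthest from that of all tested genes for base excision in NCS and MMS. The base excision members had a median change of 0.24 in MMS, against 0.06 over all genes, with 15 of 18 positive. Without the MMS_CTL sample numbered 3, which stood apart from its group, that median was 0.16. In NCS the base excision median was -0.19, against 0.02 over all genes, and 12 of 18 were negative. MMC and H2O2 also had 12 of 18 negative, and BRO had 16 of 18, with a median of -0.15 against -0.02 over all genes. The nucleotide excision medians lay between -0.06 in ENU and 0.11 in GAD, while all genes had medians of 0.01 in ENU and 0.03 in GAD.

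Among the glycosylases, UNG, which removes uracil from DNA, was the most often changed and was called lower in 5 compounds. Its lowest, median and highest level, the order of all such triples here, were 7.36, 7.83 and 8.11 in tBHQ, against 8.59, 8.78 and 9.16 in DMSO_pooled, a change of -1.06 ± 0.15 (SE, adjusted p = 0.000152). It had 7.58, 7.81 and 8.43 in ENU against the same controls, a change of -0.90 ± 0.16 (adjusted p = 0.000887). In both compounds all 6 samples lay below all 6 controls. UNG had 7.50, 7.70 and 8.63 in NCS, again against DMSO_pooled, a change of -0.92 ± 0.20 (adjusted p = 0.0171), and the highest NCS sample overlapped the controls. In the sets with other controls, UNG had 6.70, 7.25 and 7.57 in BRO, against 7.59, 7.72 and 8.24 in BRO_DMSO, a change of -0.62 ± 0.16 (adjusted p = 0.0115) with no overlap. It had 7.60, 8.08 and 8.88 in ETP, against 8.60, 8.90 and 9.33 in ETP_DMSO, a change of -0.81 ± 0.18 (adjusted p = 0.0219), and the highest ETP sample overlapped the controls. The BRO call was lost in 4 of 12 fits that left out 1 sample (BRO 3 or 5, BRO_DMSO 1 or 4), and the ETP call in 4 of 12 (ETP 5 or 6, ETP_DMSO 1 or 6). In H2O2 the 5 samples had UNG at 8.84, 8.37, 7.95, 7.83 and 7.63, a change of -0.70 that missed the threshold (adjusted p = 0.10). With the replicate number as a block, UNG in H2O2 was -0.69 and passed it (adjusted p = 0.00971). UNG was -0.37 in GAD (adjusted p = 0.00941, under 1.5-fold), and MMS was 1 of 2 compounds with a positive value, at 0.20 (0.13 without MMS_CTL 3).

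Among 18 tested S-phase genes, such as the MCM helicase subunits, some were lower in the compounds where UNG was called and in others where it was not. Of these 18, NCS had 8 lower, ENU 5, tBHQ 11 (and 1 higher), BRO 7 and ETP 7, while MMS had 5 higher and 0 lower. Their median change was -0.86 in NCS, -0.33 in ENU, -0.74 in tBHQ, -0.30 in BRO, -0.59 in ETP and 0.25 in MMS. Without a UNG call, QUE had 5 lower and 1 higher (median -0.50), GAD 4 lower and 2 higher (-0.25) and H2O2 3 lower (-0.60), while CUR had 1 lower (-0.09) and MMC 0 (-0.26). The part of these S-phase genes in the UNG values was not tested.

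**Figure D2:**
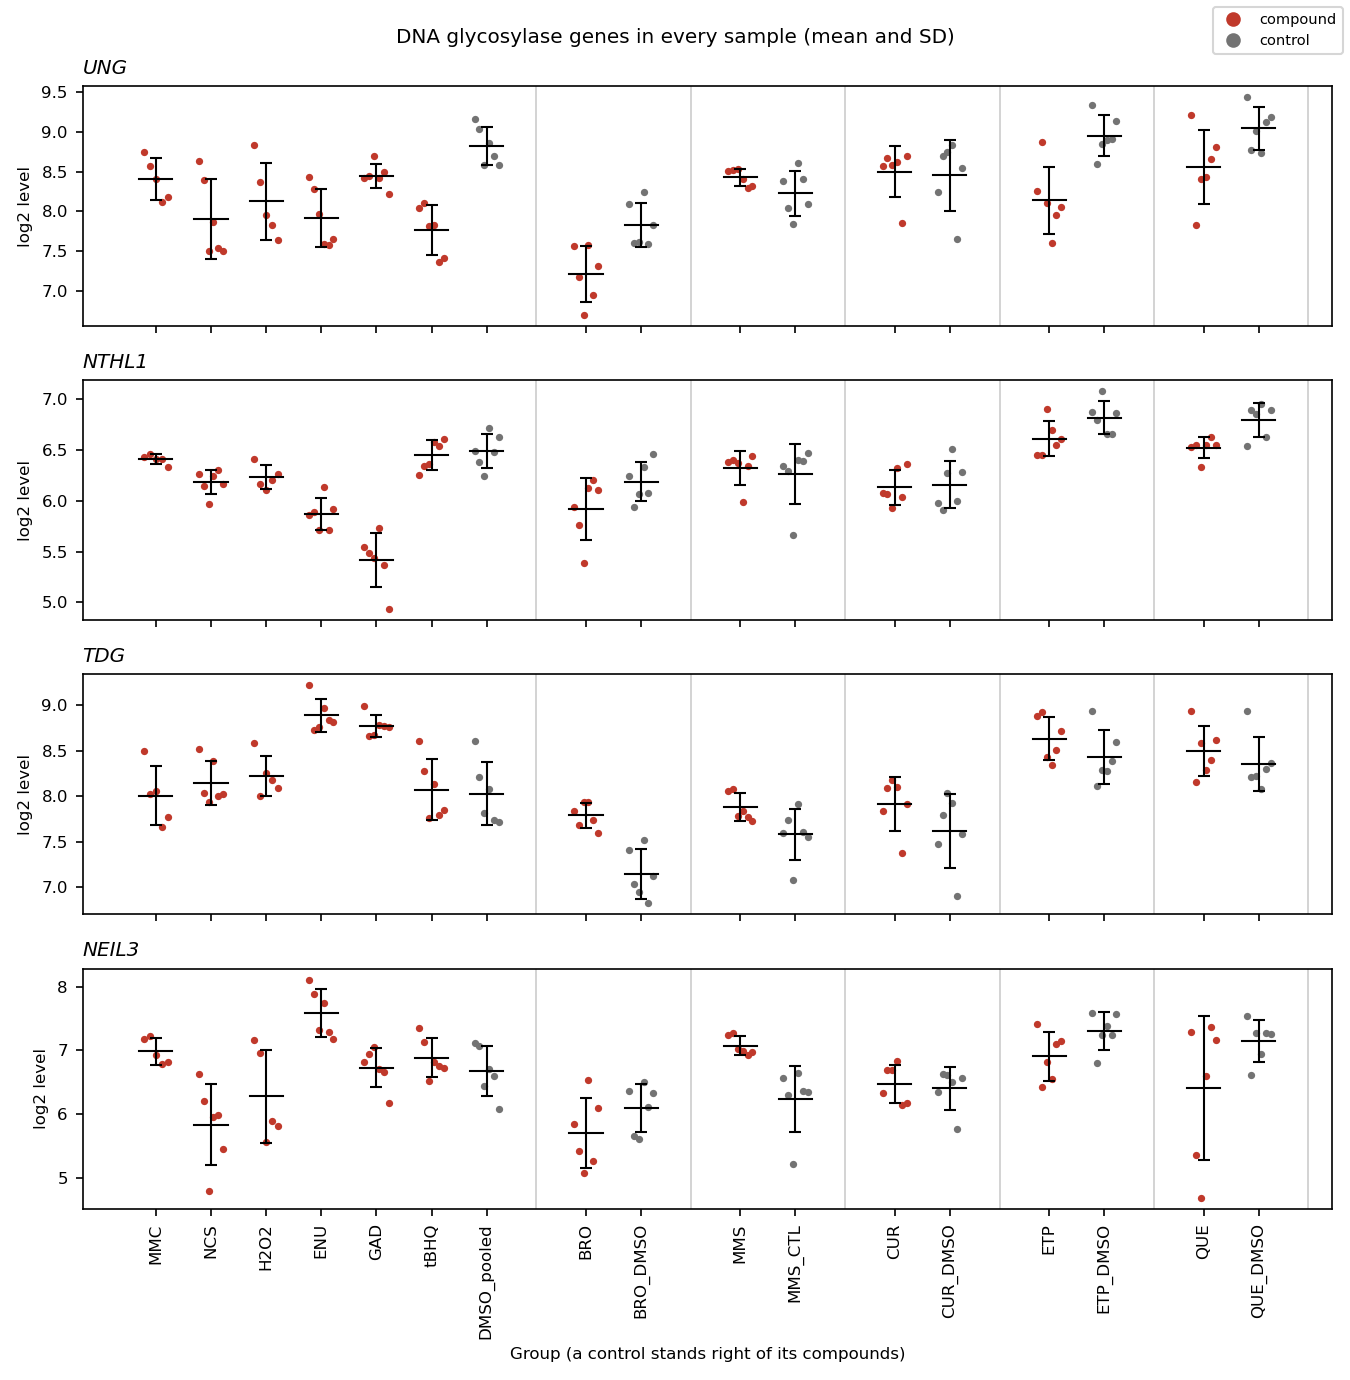
Log2 level of UNG, NTHL1, TDG and NEIL3 in every sample (points), with the mean (line) and SD (bar) of each group, compounds in red and each control in grey to the right of its compounds. UNG in tBHQ, at 7.36 to 8.11, lies below all 6 DMSO_pooled samples, at 8.59 to 9.16, and TDG in ENU and GAD lies above them.

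TDG, which removes thymine opposite guanine and oxidised forms of methylcytosine, was called higher in 3 compounds. It had 8.73, 8.83 and 9.22 in ENU, against 7.72, 7.95 and 8.61 in DMSO_pooled, a change of 0.86 ± 0.15 (adjusted p = 0.000584). It had 8.67, 8.77 and 8.99 in GAD against the same controls, a change of 0.75 ± 0.14 (adjusted p = 0.000344). In BRO it had 7.60, 7.79 and 7.94, against 6.82, 7.08 and 7.52 in BRO_DMSO, a change of 0.65 ± 0.12 (adjusted p = 0.00129). None of these 3 groups overlapped its controls. A second TDG probe set was also called higher in ENU (0.60) and GAD (0.71), but not in BRO (0.49), where the call was also lost without BRO_DMSO 5.

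NTHL1, a glycosylase for oxidised pyrimidines, was called lower in 2 compounds. It had 4.93, 5.46 and 5.73 in GAD, against 6.25, 6.48 and 6.71 in DMSO_pooled, a change of -1.07 ± 0.12 (adjusted p = 4.83e-06). It had 5.71, 5.88 and 6.13 in ENU against the same controls, a change of -0.62 ± 0.09 (adjusted p = 0.000268). Neither group overlapped the controls. The ENU value was near the fold minimum and fell under it without DMSO_pooled 4. NEIL3, which acts on oxidised bases in single-stranded DNA and opens some DNA crosslinks, was called higher in ENU and MMS. It had 7.19, 7.53 and 8.11 in ENU, against 6.09, 6.66 and 7.12 in DMSO_pooled, a change of 0.92 ± 0.20 (adjusted p = 0.00293). It had 6.93, 7.01 and 7.27 in MMS, against 5.21, 6.35 and 6.65 in MMS_CTL, a change of 0.84 ± 0.20 (adjusted p = 0.00558). Neither pair of groups overlapped, and the low MMS_CTL value is that of the sample numbered 3, without which NEIL3 in MMS was 0.63 (adjusted p = 0.000131). NEIL3 in NCS had a change of -0.84 that missed the threshold (adjusted p = 0.075) and passed it with the replicate number as a block (adjusted p = 0.00267).

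The other 6 tested glycosylases were called in no compound. MPG, the glycosylase for alkylated purines, ran between -0.24 in MMS and 0.26 in NCS, and none of its 11 values had an adjusted p under 0.05. OGG1, which removes oxidised guanine, lay between -0.31 in GAD and 0.13 in ENU. MUTYH, which removes adenine opposite oxidised guanine, lay between -0.41 in ENU (adjusted p = 0.00795) and 0.40 in MMS (adjusted p = 0.0142). SMUG1 and MBD4, which act on uracil and on mismatched thymine, lay between -0.42 and 0.18 and between -0.30 and 0.12. NEIL2, a further glycosylase for oxidised bases, lay between -0.25 and 0.28. These 6 genes thus kept within 1.5-fold of their controls in every comparison. Lower-reading probe sets were called where the chosen ones were not: SMUG1 had 0.74 in GAD and -0.73 in QUE (chosen -0.06 and -0.12), and MBD4 had 0.69 in BRO (chosen -0.05), so for these 2 genes the result depends on the probe set.

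Of the later steps of base excision, the abasic-site endonucleases were not called. APEX1, the main such enzyme, was -0.41 in ENU (adjusted p = 0.000517), its lowest value, and had control group means from 10.6 to 11.3. APEX2 was 0.56 in MMS (adjusted p = 0.00205), just under the fold minimum, and a lower-reading APEX2 probe set had 0.80 in QUE, where the chosen one had 0.09. POLB, the gap-filling polymerase, lay between -0.17 in tBHQ and 0.37 in ETP (adjusted p = 0.0265). LIG3, the ligase that works with XRCC1, lay between -0.35 in NCS and 0.45 in MMS (adjusted p = 0.0352), or 0.30 without MMS_CTL 3. XRCC1, the scaffold, had 4.06, 4.41 and 4.60 in BRO, against 4.72, 4.94 and 5.23 in BRO_DMSO, a change of -0.59 ± 0.11 (adjusted p = 0.00124) with no overlap. Its level is close to the filter, and the call was lost in 5 of 12 fits that left out 1 sample (BRO 2, 4 or 5, BRO_DMSO 1 or 5) and with equal medians (-0.58) or quantile normalization (-0.57), all of which leave it just under the fold minimum.

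PARP2 and APTX, which sense nicks and clean blocked DNA ends, held the larger changes among these later genes. PARP2 had 8.29, 8.44 and 8.65 in MMS, against 6.98, 7.58 and 7.96 in MMS_CTL, a change of 0.89 ± 0.14 (adjusted p = 0.000353). In NCS it had 7.26, 7.57 and 8.29, against 8.10, 8.22 and 8.66 in DMSO_pooled, a change of -0.66 ± 0.16 (adjusted p = 0.0271). The MMS groups did not overlap and the NCS groups did, so the same gene was called higher in one compound and lower in the other. All 3 PARP2 probe sets were called in both compounds, in these directions. PARP2 was also 0.58 in GAD (adjusted p = 0.000129), just under the fold minimum. In tBHQ a lower-reading PARP2 probe set was called lower (-0.60), where the chosen one had -0.42. The NCS call was lost in 6 of 12 fits that left out 1 sample (NCS 3, 4, 5 or 6, DMSO_pooled 1 or 2), and without MMS_CTL 3 PARP2 in MMS was 0.77. APTX, which removes the adenylate left by a failed ligation, had 8.47, 8.56 and 8.62 in GAD, against 7.53, 7.58 and 7.97 in DMSO_pooled, a change of 0.86 ± 0.09 (adjusted p = 2.14e-06). It had 8.0, 8.19 and 8.32 in MMS, against 7.07, 7.58 and 7.68 in MMS_CTL, a change of 0.66 ± 0.10 (adjusted p = 0.000295). Neither pair of groups overlapped, and a second APTX probe set was called in both (0.82 in GAD, 0.61 in MMS). Without MMS_CTL 3, APTX in MMS was 0.57 (adjusted p = 2.86e-05), under the fold minimum. APTX was also 0.49 in BRO (adjusted p = 0.000355), under 1.5-fold. PARP1, the main nick sensor, lay between -0.45 in NCS and 0.33 in MMS and was called in no compound.

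Among the nucleotide excision genes, those that recognise lesions held 12 of the 15 higher calls, all of them of XPC or DDB2. XPC binds the distortion that a lesion makes in the helix, and DDB2 finds ultraviolet photoproducts. The 5 MMC samples had DDB2 at 9.17, 9.40, 9.50, 9.53 and 9.42, against 8.47, 8.67 and 8.82 in DMSO_pooled, a change of 0.76 ± 0.08 (adjusted p = 0.00371). They had XPC at 7.96, 8.21, 8.29, 8.52 and 8.40, against 7.73, 7.82 and 7.91 in DMSO_pooled, a change of 0.46 that missed the threshold (adjusted p = 0.0796). All 5 MMC samples lay above all 6 controls for both genes.

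The next 4 compounds have the same controls. In NCS, DDB2 had 9.02, 9.64 and 9.79, a change of 0.88 ± 0.12 (adjusted p = 0.00132), and XPC had 8.12, 8.73 and 8.84, a change of 0.78 ± 0.11 (adjusted p = 0.00186). The 5 H2O2 samples had DDB2 at 9.14, 9.32, 9.18, 9.90 and 9.82, a change of 0.83 ± 0.14 (adjusted p = 0.0174), and XPC at 8.04, 8.39, 8.44, 8.85 and 8.90, a change of 0.70 ± 0.14 (adjusted p = 0.0265). In both compounds both genes lay above all controls, and the XPC call in H2O2 was lost in 7 of 11 fits that left out 1 sample (H2O2 3, 5 or 6, DMSO_pooled 2, 4, 5 or 6), with a highest adjusted p of 0.0816. In ENU, DDB2 had 9.20, 9.29 and 9.53, a change of 0.67 ± 0.08 (adjusted p = 2.8e-05), and XPC had 8.17, 8.47 and 8.72, a change of 0.65 ± 0.09 (adjusted p = 0.00013). Again no ENU sample overlapped the controls.

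In GAD the pair parted. XPC had 8.54, 8.82 and 9.22 in GAD, a change of 1.04 ± 0.10 (adjusted p = 9.34e-07) above all controls, while DDB2 was -0.31 (adjusted p = 0.00506), lower but under the fold minimum. In tBHQ both were lower under the fold minimum, XPC at -0.28 (adjusted p = 0.0462) and DDB2 at -0.47 (adjusted p = 0.00285).

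ETP had the largest changes of both genes among the 11 compounds. DDB2 had 9.33, 9.89 and 10.04 in ETP, against 8.42, 8.51 and 8.85 in ETP_DMSO, a change of 1.22 ± 0.12 (adjusted p = 9.41e-05). XPC had 9.05, 9.36 and 9.60 in ETP, against 7.90, 8.12 and 8.48 in ETP_DMSO, a change of 1.2 ± 0.11 (adjusted p = 5.37e-05). The groups did not overlap, and without the ETP sample numbered 2, which stood apart, DDB2 in ETP was 1.31 and XPC in ETP 1.19. In MMS, XPC had 8.37, 8.52 and 8.66, against 7.44, 7.88 and 8.11 in MMS_CTL, a change of 0.68 ± 0.10 (adjusted p = 0.000263), and DDB2 was 0.52 (adjusted p = 9.09e-05), under the fold minimum. In QUE, XPC had 8.29, 8.55 and 9.21, against 7.71, 7.91 and 8.11 in QUE_DMSO, a change of 0.77 ± 0.14 (adjusted p = 0.00331), and DDB2 was 0.42 (adjusted p = 0.0493), or 0.28 without QUE 2, which stood apart. XPC did not overlap in either compound, but without the QUE samples numbered 2 and 3 XPC in QUE was 0.56 (adjusted p = 0.000367), under the fold minimum. In BRO and CUR neither gene was called, with XPC at 0.13 in BRO and 0.11 in CUR and DDB2 at 0.05 in BRO and -0.21 in CUR.

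**Figure D3:**
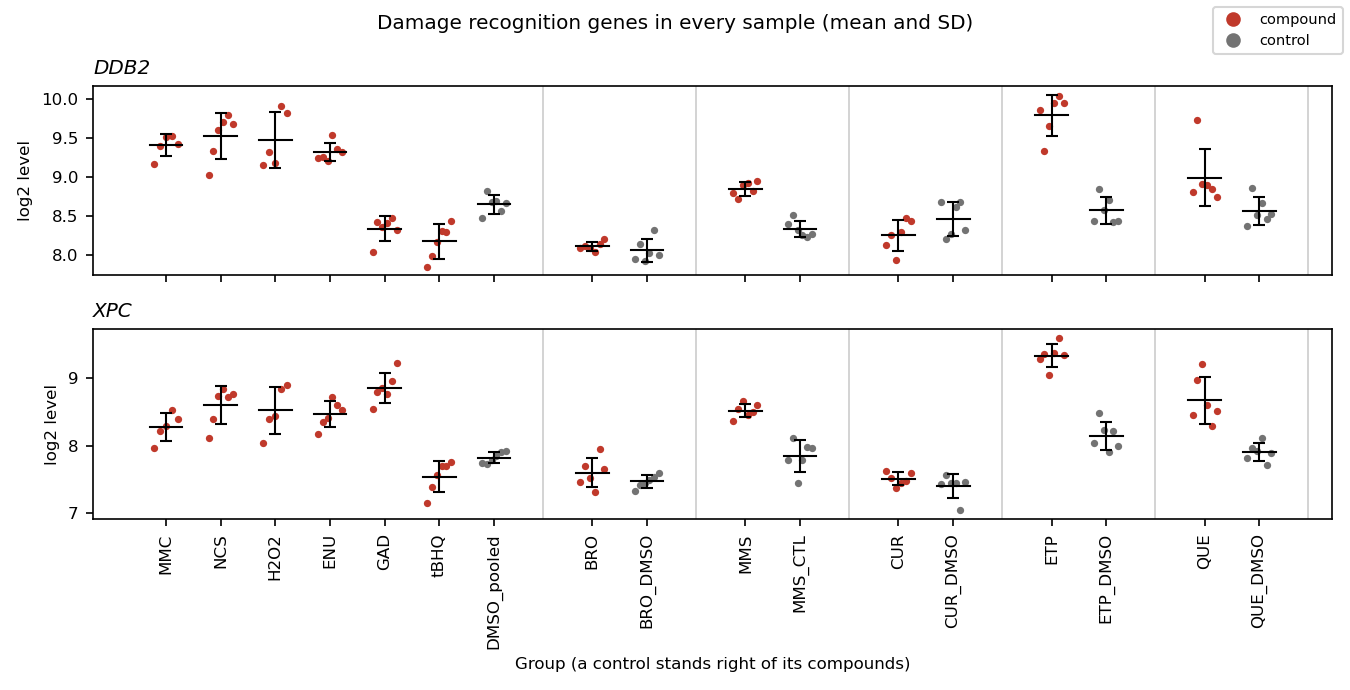
Log2 level of DDB2 and XPC in every sample (points), with the mean (line) and SD (bar) of each group, compounds in red and each control in grey to the right of its compounds. DDB2 in ETP, at 9.33 to 10.04, lies above all ETP_DMSO samples, at 8.42 to 8.85, and DDB2 in tBHQ, at 7.85 to 8.44, lies below all 6 DMSO_pooled samples.

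Other genes known to be induced by p53 were higher in most of the same compounds, so the values of XPC and DDB2 stand beside them here. Of 14 tested p53 targets such as CDKN1A and MDM2, the number called higher was 12 in QUE, 11 in ENU, 9 in each of NCS, GAD and ETP, 8 in H2O2 and MMS, 7 in BRO, 2 in MMC and 1 in tBHQ and CUR, and 0 were lower. In BRO, CDKN1A was 1.21 (adjusted p = 3.1e-05) and MDM2 1.10 (adjusted p = 5.3e-05), while XPC and DDB2 were not called. Their part in the XPC and DDB2 values was not tested.

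The partners of XPC and DDB2 were called in no compound. DDB1, which binds DDB2 to its ubiquitin ligase, lay between -0.20 in tBHQ and 0.30 in ETP. RAD23B and CETN2, which hold and stabilise XPC, lay between -0.17 and 0.21 and between -0.42 and 0.20, with the lowest CETN2 value in GAD (adjusted p = 0.000362).

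Of the transcription-coupled branch, ERCC6 (the CSB protein, which moves the stalled polymerase) was called lower in 2 compounds. It had 5.36, 5.49 and 5.87 in GAD, against 5.76, 6.42 and 6.84 in DMSO_pooled, a change of -0.79 ± 0.17 (adjusted p = 0.00122). It had 5.52, 5.90 and 6.05 in MMS, against 5.89, 6.43 and 7.01 in MMS_CTL, a change of -0.61 ± 0.17 (adjusted p = 0.0156). Both pairs of groups overlapped, and a second ERCC6 probe set was not called in either (-0.53 in GAD, -0.49 in MMS) but was called lower in tBHQ (-0.70), where the chosen set had -0.38. The MMS call was lost in 4 of 12 fits that left out 1 sample (MMS 1 or 4, MMS_CTL 5 or 6). ERCC8 (the CSA protein, part of a ubiquitin ligase) had 6.58, 6.67 and 6.89 in GAD, against 5.86, 5.98 and 6.30 in DMSO_pooled, a change of 0.66 ± 0.08 (adjusted p = 1.38e-05) with no overlap. A second ERCC8 probe set had 0.51 there and was not called. UVSSA, which brings a deubiquitinase to the stalled polymerase, had 7.99, 8.46 and 8.86 in QUE, against 7.66, 7.75 and 8.11 in QUE_DMSO, a change of 0.61 ± 0.14 (adjusted p = 0.00768) with overlap. Of its 4 probe sets, 2 others had 0.19 and -0.02, but with mean levels of 3.37 and 4.22 they are read close to background. The remaining probe set is not given here. The UVSSA call was lost in 5 of 12 fits that left out 1 sample (QUE 3 or 4, QUE_DMSO 1, 3 or 6). XPA, which verifies the lesion, lay between -0.25 in BRO and 0.30 in CUR and was not called.

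Of the TFIIH genes, 2 of 10 were called, each in 1 compound. ERCC3, a helicase of the core, had 8.0, 8.06 and 8.38 in GAD, against 7.17, 7.25 and 7.44 in DMSO_pooled, a change of 0.82 ± 0.07 (adjusted p = 8.43e-07) with no overlap. CCNH, the cyclin of the TFIIH kinase, had 8.67, 9.27 and 9.91 in QUE, against 9.72, 9.96 and 10.14 in QUE_DMSO, a change of -0.65 ± 0.16 (adjusted p = 0.00995). The QUE groups overlapped, and the CCNH call was lost without QUE 3. The kinase partners CDK7 and MNAT1 were between -0.06 and 0.25 and between -0.18 and 0.08. GTF2H1, a core subunit, was positive in all 11 comparisons, between 0.07 in ETP and 0.56 in GAD (adjusted p = 5.64e-05), and was never called, though another probe set was called higher in GAD (0.66). GTF2H3 lay between -0.43 in ENU (adjusted p = 0.0205) and 0.43 in MMS, GTF2H4 between -0.20 and 0.31 (the MMS value, 0.18 without MMS_CTL 3), GTF2H5 between -0.22 and 0.08, and ERCC2, near the filter, between -0.45 and 0.26. GTF2H2, between -0.28 and 0.35, has near-identical copies in the genome that the probes may not separate. None of these 5 genes was called in any compound by its chosen probe set. A second GTF2H5 probe set, with a mean level of 3.44, was called higher in GAD (0.59) and QUE (1.08).

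Of the incision nucleases, ERCC1, the partner of ERCC4 in the cut before the lesion, was called lower in 2 compounds. It had 7.72, 7.92 and 8.13 in GAD, against 8.29, 8.73 and 9.01 in DMSO_pooled, a change of -0.75 ± 0.13 (adjusted p = 0.000164) with no overlap. It had 7.49, 7.58 and 8.22 in BRO, against 8.18, 8.36 and 8.52 in BRO_DMSO, a change of -0.62 ± 0.13 (adjusted p = 0.00269) with overlap. A second ERCC1 probe set was called lower in GAD (-0.73) but not in BRO (-0.40), and the third had 0.29 in GAD and 0.28 in BRO, so the direction depends on the probe set. In MMS the chosen set was -0.53 (adjusted p = 0.000213), under the fold minimum, and the second set was called lower (-0.66). The BRO call was lost without BRO 1, 2 or 3. ERCC4, the nuclease itself, was 0.56 in GAD (adjusted p = 0.0032), under 1.5-fold and opposite in sign to ERCC1. ERCC5, which cuts after the lesion, lay between -0.03 in tBHQ and 0.39 in QUE (adjusted p = 0.00983).

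Differences between compounds were tested for 3 pairs, in 1 fit of all 17 groups, as the change in one compound minus the change in the other. The alkylating agents MMS and ENU, which methylate and ethylate DNA, differed in 5 of 40 members, against 7.82% of all genes, and in all 5 the change in MMS was the higher. UNG differed by 1.11 (95% confidence interval 0.56 to 1.65, adjusted p = 0.00225), with a change of 0.20 in MMS and -0.90 in ENU. MUTYH differed by 0.81 (0.54 to 1.08), NTHL1 by 0.68 (0.37 to 0.98), UVSSA by 0.65 (0.25 to 1.05) and GTF2H3 by 0.86 (0.53 to 1.20). None of these 5 genes was called in MMS itself. Without MMS_CTL 3, UNG (1.03), MUTYH (0.72), GTF2H3 (0.86) and TDG (-0.67, lower in MMS) passed, and NTHL1 and UVSSA did not. XPC differed by 0.03 (-0.31 to 0.37), DDB2 by -0.15 (-0.48 to 0.18) and MPG by -0.03 (-0.41 to 0.35), and none of these 3 differences passed.

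**Figure D4:**
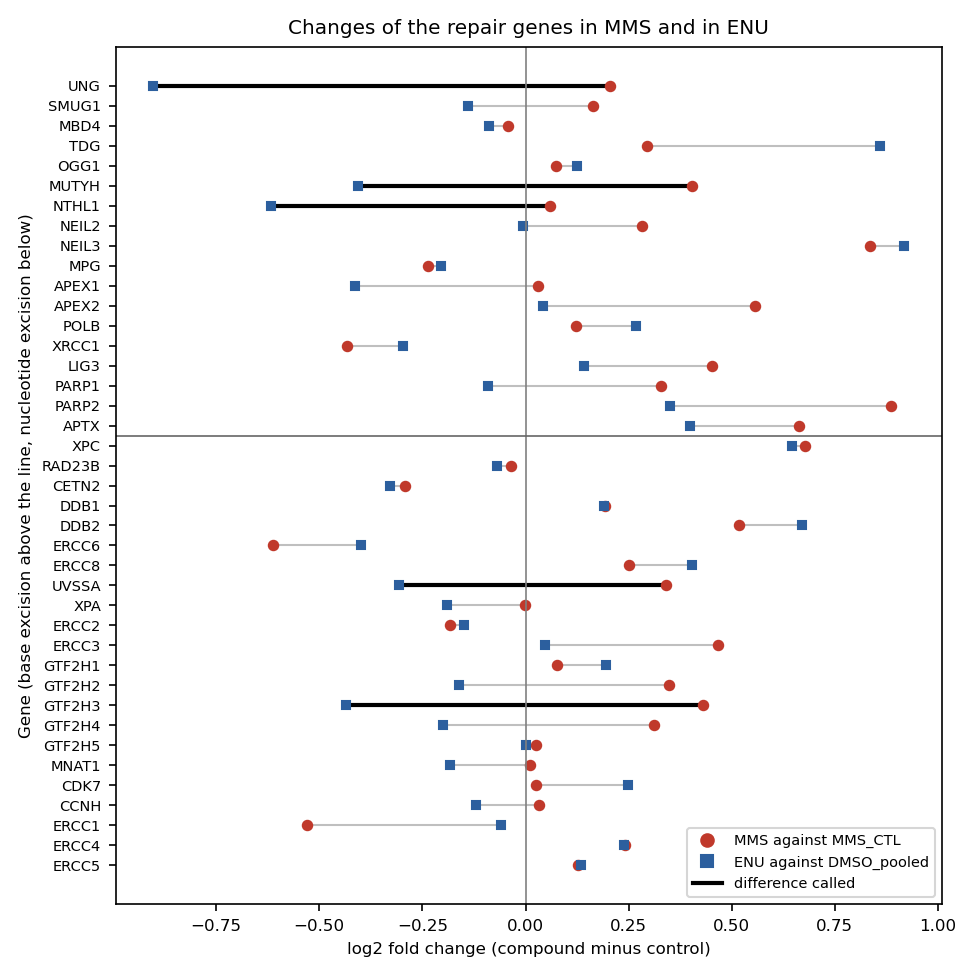
Log2 fold change of the 40 tested genes in MMS against MMS_CTL (red circles) and in ENU against DMSO_pooled (blue squares), base excision genes above the horizontal line and nucleotide excision genes below it. The 5 heavy lines mark members whose 2 changes differed by the test, among them UNG at 0.20 in MMS and -0.90 in ENU, while the symbols of XPC and DDB2 lie close together.

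H2O2 and tBHQ, an oxidant and a redox-active phenol, differed in 2 of 40 members, against 10% of all genes. DDB2 differed by 1.30 (1.05 to 1.55, adjusted p = 1.24e-14), with 0.83 in H2O2 and -0.47 in tBHQ. XPC differed by 0.98 (0.73 to 1.24, adjusted p = 1.42e-09), with 0.70 in H2O2 and -0.28 in tBHQ. UNG, lower in both, differed by 0.36 (-0.04 to 0.77) and did not pass. ETP and NCS, a topoisomerase II poison and a strand-breaking agent, differed in 0 of 40 members, against 0.0174% of all genes, by limma with Benjamini-Hochberg adjustment. At an unadjusted p under 0.05, 3 of the 40 passed, XPC, DDB2 and POLB, and the share of all genes under that threshold was not counted. DDB2 differed by 0.34 (95% confidence interval 0.01 to 0.68) and XPC by 0.42 (0.08 to 0.76), both higher in ETP, each with an adjusted p of 0.999.

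Other genes of the pathways or near them, from lists that hold no member, are set beside them. Of 7 further genes listed with base excision, TDP2 was higher in GAD (1.2 ± 0.07), tBHQ (1.05 ± 0.06) and BRO (0.74 ± 0.11). TDP2 frees ends from trapped topoisomerase, which is not a step of base excision. FEN1, the flap nuclease of long-patch repair, was higher in MMS (0.70), PARG, which removes poly(ADP-ribose), was higher in GAD (0.62), and TDP1 was lower in ENU (-0.71). POLL, PARP3 and HMGB1 were not called. Of 9 further nucleotide excision genes, CUL4B, a scaffold of the DDB1 ubiquitin ligases, was lower in ENU (-0.73), GAD (-1.16) and MMS (-0.81), and the other 8 were not called. Of 15 genes of the resynthesis step that both pathways share with replication, PCNA, the polymerase clamp and a known p53 target, was higher in ENU (0.70 ± 0.15), MMS (0.73 ± 0.09) and ETP (0.69 ± 0.15). In MMS, POLD3 (0.66) and RFC3 (0.78) were higher as well, and 0 of the 15 were lower. In NCS, POLD3 (-0.81), RFC4 (-0.83) and RFC5 (-0.80) were lower, and 0 were higher. The other lower calls of these 15 were 3 in BRO (POLD4, POLE2, RFC2), 3 in QUE (POLD1, POLE4, RFC5), 2 in GAD (POLD2, POLE2) and 1 each in H2O2 (RFC4), ENU (RFC2), tBHQ (LIG1) and ETP (POLE2). As shares of the 15, the calls in either direction were 20% in NCS, BRO, MMS and QUE, 13.3% in ENU, GAD and ETP, 6.67% in H2O2 and tBHQ and 0% in MMC and CUR, to be read against the shares of all genes given above.

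For the series as a whole, the markers went with the labelled line of mesenchymal origin: 9 of 10 mesenchymal markers were at 4 or more in all 6 control groups, and all 13 epithelial, blood, endothelial and liver markers were under 4 in all of them. Array medians lay between 2.88 in the BRO set and 3.54 in the ETP set, so levels are compared only within a set. The samples farthest from their groups were ETP 2, at 2.36 times the group's usual distance, MMS_CTL 3 at 2.2 times and QUE 2 at 2.19 times.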

How the data were processed

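The log2 values per probe set were used as deposited by the authors, who made them with GCRMA in Partek, per the submitters' processing notes, with no versions given in the sources used here. GCRMA corrects background by probe sequence and summarises probes on a log2 scale, so low levels are compressed and differences between genes are not differences in amount. Of 54715 probe sets, 102 were array controls, and 40914 named 1 gene, 864 several and 12835 none in the platform annotation. Genes were represented by 1 probe set, giving 19774, of which 11496 with a group mean of 4 or more in at least 1 of 17 groups were tested. The ETP_DMSO arrays numbered 2 and 2-2 (SD of their difference 0.179, against 0.235 for the next closest pair) were averaged and counted once, leaving 100 samples. Some genes of these pathways are not reported here.

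Each compound was compared with its own control in limma 3.58.1 under R 4.3.3 (lmFit and eBayes, no replicate block), with only those 2 groups in the fit, Benjamini-Hochberg adjustment over all tested genes and calls at an adjusted p under 0.05 and at least 1.5-fold. Compounds were set against each other in a single fit that held all 17 groups. Every member is named, and values per sample are given for called members. The members and lists were chosen with earlier results of these data known. Tested on simulated data with 50 genes changed per size, the 11 fits recovered between 74% (QUE) and 88% (MMC, tBHQ and BRO) of changes of 0.75 on the log2 scale. The simulated noise was normal and independent between genes and samples. It held no shared deviations of same-numbered samples and no samples that stood apart, so these rates may not hold for the data.

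Replicate numbers were checked for pairing by the correlation of same-numbered samples' deviations over 25479 probe sets. A pair was at or below 0.1 in MMS (lowest -0.29), ETP (0.055) and QUE (0.091). In the other 8 comparisons every pair was above it, so these looked paired on the data alone. The calls and shares in the Results come from fits without a replicate block and leave this pairing out. With the block, UNG in H2O2 and NEIL3 in NCS were called as well. Alternatives were the filter, the mean of probe sets, equal medians, quantile normalization, a trend in the variance, the replicate block, the fold minimum, the repeated array and leaving out each sample. Leaving out the samples that stood apart was chosen after seeing the data. The number of arrays limits the precision.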

Additional observations from a re-analysis of the deposited data

Results flagged for a closer look

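In 4 called members 1 sample lay far from the others of its group by Dixon's test. TDG had 8.99 in GAD sample 1, the highest of its group. ERCC3 had 8.38 in GAD sample 6, also the highest. NEIL3 had 5.21 and APTX 7.07 in MMS_CTL sample 3, both the lowest of their group. Over all members and groups, 53 of 680 tests (7.79%) stood out in this way, where chance gives about 1 in 20, and MMS_CTL sample 3 held 11 of them.

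Differences between compounds passed the test in 7 cases. The MMS change was above the ENU change in UNG by 1.11, in MUTYH by 0.81, in NTHL1 by 0.68, in UVSSA by 0.65 and in GTF2H3 by 0.86, all log2, and NTHL1 and UVSSA did not pass without MMS_CTL sample 3. The H2O2 change was above the tBHQ change in XPC by 0.98 and in DDB2 by 1.30.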

How the results depend on the processing

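None of the calls or counts changed direction under any alternative. With the mean of all probe sets the nucleotide excision counts were 3 in GAD, 0 in BRO and 1 in MMS. These are not all the changes, since 6 of 61 results for single genes were weaker under that mean. The base excision call of TDG in BRO was lost too, as its 2 probe sets, at 0.65 and 0.49, average to under the fold minimum. With the replicate number as a block (replicate block) the base excision count in H2O2 was 1, UNG (-0.69), and NEIL3 in NCS (-0.84) was also called; it changed no other call of a member given here. With no fold minimum the base excision counts were 9 in MMS, ENU and GAD, 8 in tBHQ, 6 in BRO, 4 in NCS, 2 in ETP and 1 in QUE, and the nucleotide excision counts 14 in GAD, 9 in MMS, 7 in ENU, 6 in QUE and tBHQ, 5 in BRO and 4 in NCS. At least 2-fold left base excision counts of 0 in NCS, ENU, BRO, MMS and ETP and 1 in GAD, and nucleotide excision counts of 0 in MMC, NCS, H2O2, ENU, BRO, MMS and QUE and 1 in GAD. UNG in tBHQ and DDB2 and XPC in ETP passed that minimum as well. These counts differ by the fold minimum itself. For the mean of probe sets, ERCC1 in GAD had -0.75, -0.73 and 0.29 and ERCC6 in MMS had -0.61 and -0.49. Both sets of values average to under the fold minimum. The other losses under that mean, apart from TDG in BRO, were not traced. Leaving out 1 sample gave base excision counts of 1 to 3 in NCS, 0 to 1 in H2O2, 3 to 4 in ENU, 3 to 4 in GAD, 1 to 3 in BRO, 2 to 4 in MMS and 0 to 1 in CUR, ETP and QUE, and nucleotide excision counts of 1 to 2 in H2O2, 5 to 6 in GAD, 0 to 1 in BRO, 1 to 2 in MMS and 1 to 3 in QUE. Of 37 calls, 25 were kept in each such fit. The trend in the variance, the repeated array and leaving out the filter changed no call; a filter at 6 left XRCC1 untested, so the base excision count in BRO was 2. Members near log2 4, such as XRCC1 and ERCC2, are read close to background.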
